A study of Homo sapiens with 4 samples.

Results

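The miRNAs miR-26a, miR-26b, miR-103 and miR-107 (human, hsa-miR-26a, hsa-miR-26b, hsa-miR-103 and hsa-miR-107 in the table) were chosen by name, as members of a set that others have reported as raised by hypoxia, by a rule that uses no value of these data, although earlier results of these data were known when the set was proposed. They are 4 of the 377 human miRNAs on the TaqMan array card, and all 4 assays were present with 1 well each. They were measured in RPMI8226, an established human multiple myeloma line, and in the exosome fraction of its medium. The groups were the exosome fraction from cultures kept for 24 h at 1% oxygen (hypoxia), that from cultures kept for 24 h at 20% oxygen (normoxia), the cells at 1% oxygen and the cells at 20% oxygen, with 1 sample in each and AIM-V medium throughout. The exosome fraction was precipitated with a polymer reagent (Exoquick) from 5 ml of cleared and filtered medium, which does not separate vesicles from other material in the medium, and only its reverse-transcription products were pre-amplified. The values are threshold cycles (Ct), the number of PCR cycles needed for the signal to reach a set threshold. At full efficiency a Ct lower by 1 cycle means 2 times the template, and the table ends at a ceiling of 35, read here as not detected. With 1 sample in each group no test between groups was made and no p-value is given.

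A miRNA is loaded into an Argonaute protein and guides it to messenger RNAs that pair with its seed, the bases 2 to 8 from the 5′ end, so that miRNAs with the same seed share most of their predicted targets. The miR-26 miRNAs are known as repressors of the histone methyltransferase EZH2 and of cell-cycle genes, and they lie in introns of CTDSP genes, which encode small phosphatases. miR-103 and miR-107 lie in introns of the pantothenate kinase genes (PANK), whose enzymes start coenzyme A synthesis. They are known to repress DICER1, which makes mature miRNAs, and miR-107 has been reported to repress ARNT, the partner of hypoxia-inducible factor. Members of both pairs have been described as responding to hypoxia in other cancer lines.

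The mature sequences, credited to RefSeq (GRCh38.p14), are shown because they define what each assay can tell apart. Capitals mark the seed. The last 2 belong to relatives of miR-103 that are described further on.
miR-26a: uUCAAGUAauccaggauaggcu
miR-26b: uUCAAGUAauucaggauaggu
miR-103: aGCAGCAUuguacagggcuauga
miR-107: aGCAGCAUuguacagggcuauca
miR-16: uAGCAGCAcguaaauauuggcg
miR-15a: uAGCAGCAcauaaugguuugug

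The sequences form 2 seed groups. miR-26a and miR-26b share the seed UCAAGUA, which 4 of the 2370 mature human miRNAs in the RefSeq table carry, and only these 2 of the 4 have an assay analysed here. miR-103 and miR-107 share the seed GCAGCAU, which no other mature miRNA in that table carries. Counting positions from 1 at the 5′ end, miR-107 differs from miR-103 by the single substitution G22C. miR-26b differs from miR-26a by C11U and C21U and is 21 bases long, against 22 bases for miR-26a. The assays named miR-26a and miR-103 were matched to the RefSeq entries miR-26a-5p and miR-103a-3p. Each of these mature sequences comes from 2 genes, shown as hairpins with the mature miRNA in capitals.
MIR26A1: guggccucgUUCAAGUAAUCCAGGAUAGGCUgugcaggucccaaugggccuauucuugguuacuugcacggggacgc
MIR26A2: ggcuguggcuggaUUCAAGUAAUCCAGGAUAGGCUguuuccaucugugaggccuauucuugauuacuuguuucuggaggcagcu
MIR103A1: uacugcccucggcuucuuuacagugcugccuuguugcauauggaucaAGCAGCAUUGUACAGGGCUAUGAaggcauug
MIR103A2: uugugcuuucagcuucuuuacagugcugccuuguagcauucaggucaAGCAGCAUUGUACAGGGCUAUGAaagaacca

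The mature miRNA lies on the 5p arm of the MIR26A hairpins and on the 3p arm of the MIR103A hairpins. In GRCh38.p14, MIR26A1 lies at chr3:37969404-37969480 on the plus strand within the span of CTDSPL, and MIR26A2 at chr12:57824609-57824692 on the minus strand within CTDSP2. MIR26B lies at chr2:218402646-218402722 on the plus strand within CTDSP1. MIR103A1 lies at chr5:168560896-168560973 on the minus strand within PANK3, MIR103A2 at chr20:3917494-3917571 on the plus strand within PANK2, and MIR107 at chr10:89592747-89592827 on the minus strand within PANK1. An assay of the mature miRNA cannot tell which of the 2 genes its template came from.

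U6, the small nuclear RNA used to normalize the cells, had a Ct of 18.81 ± 0.12 in hypoxic cells and 18.82 ± 0.15 in normoxic cells (SD, n = 4 wells of 1 sample). The spike-in ath-miR159a, used to normalize the exosome fraction, had a Ct of 22.99 in the hypoxic and 22.94 in the normoxic exosome fraction. The U6 wells, the only repeat wells, give an SD of 0.19 cycles for a difference between 2 single wells, which describes an abundant RNA within a card and not the spread between cultures. A total of 219 miRNAs were detected in the hypoxic and 221 in the normoxic exosome fraction, 155 in hypoxic cells and 162 in normoxic cells. Detected Ct values gathered near whole cycles: 67.1% lay within 0.1 of a whole number in the hypoxic and 61.1% in the normoxic exosome fraction, 71.6% in hypoxic cells and 53.7% in normoxic cells, where an even spread would give 20%. The labelled cell type had its markers: 5 of 5 lymphoid assays were detected in all 4 samples, the lowest at Ct 24.97 in hypoxic and 24.95 in normoxic cells, while the liver marker miR-122 was at the ceiling in all 4. Markers listed for other cell types were also detected: 3 of 4 epithelial assays were detected in each of the 4 samples, and of 2 muscle assays, 2 were detected in both exosome samples, 1 in hypoxic cells and 0 in normoxic cells. The epithelial miR-203 had a Ct of 30.95 in hypoxic and 31.67 in normoxic cells, beside 30.97 and 31.67 for the lymphoid miR-155. Detection of these markers alone thus does not set the labelled cell type apart.

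In cells the 4 miRNAs had the same order of Ct at both oxygen levels, with miR-26a lowest, then miR-26b, miR-103 and miR-107. hsa-miR-26a had a Ct of 25.74 in hypoxic cells and 25.98 in normoxic cells, ranks 14 of 155 and 18 of 162 from the lowest Ct. hsa-miR-26b had a Ct of 27.74 in hypoxic cells and 27.96 in normoxic cells, ranks 30 and 34. hsa-miR-103 had a Ct of 28.99 in hypoxic cells and 29.06 in normoxic cells, ranks 49 and 48. hsa-miR-107 had a Ct of 33.10 in hypoxic cells, rank 122, and stood at the ceiling in normoxic cells. Neighbours in this order were 2.00 cycles (miR-26b after miR-26a), 1.25 cycles (miR-103 after miR-26b) and 4.11 cycles (miR-107 after miR-103) apart in hypoxic cells, all larger than the 0.19 cycles between repeat wells. Assays of different miRNAs can differ in efficiency, so this is an order of Ct values and not of molecules.

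In the exosome fraction both miR-26 miRNAs were detected, and miR-103 and miR-107 were not. miR-26a had a Ct of 21.96 in the hypoxic and 21.39 in the normoxic exosome fraction, ranks 33 of 219 and 28 of 221. miR-26b had a Ct of 24.52 in the hypoxic and 23.98 in the normoxic exosome fraction, ranks 77 and 72. miR-103 and miR-107 were at the ceiling of 35 in the exosome fraction at both oxygen levels, and no level or change can be given for them there. In cells miR-107 was already at the ceiling in normoxia and at a late Ct in hypoxia.

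**Figure D1:**
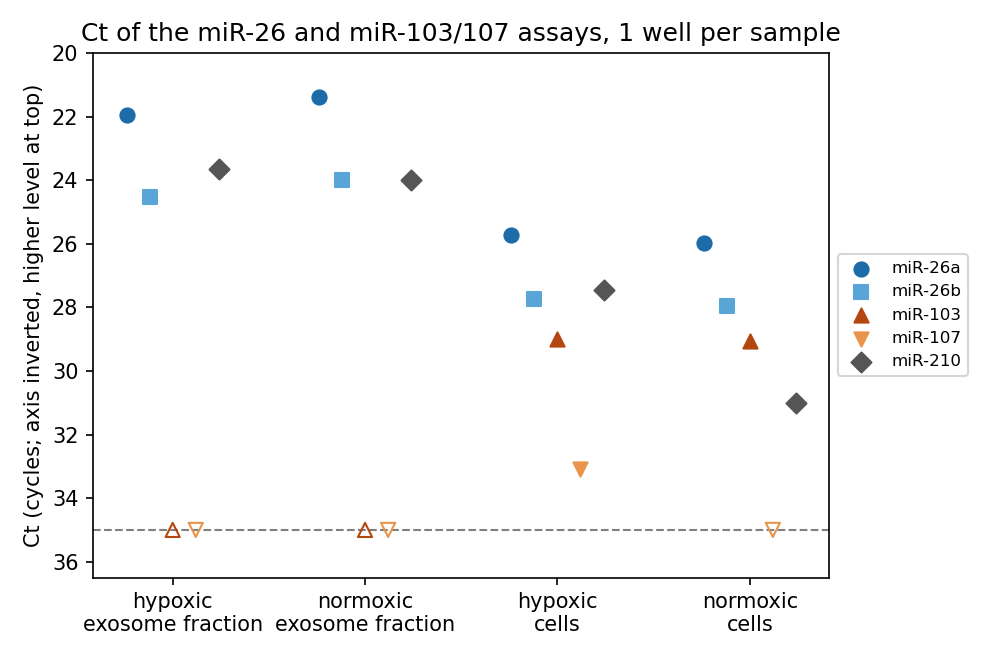
Ct (y axis, in cycles, inverted) of the 4 miRNAs and of miR-210 in each of the 4 samples (x axis), 1 well per point. Open symbols stand at the ceiling of 35 (dashed line): miR-103 and miR-107 lie there in both exosome samples and miR-107 also in normoxic cells, while miR-26a keeps the lowest Ct of the 4 miRNAs in each sample.

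The first comparison asked whether these miRNAs differ between hypoxic and normoxic cells. Relative to U6, miR-26a was 1.17-fold, miR-26b 1.16-fold and miR-103 1.05-fold in hypoxic over normoxic cells (log2 changes of 0.23, 0.21 and 0.07). The changes of miR-26a and miR-26b were near the 0.19 cycles between repeat wells, and that of miR-103 was below it. None of these 3 was past 2-fold, against 13.6% (20 of 147) of the miRNAs detected in both cell samples. Most of the 20 had a late Ct: with Ct under 32 in both samples, 1 higher and 4 lower remained. miR-26a, miR-26b and miR-103 lay inside the middle 50% of the 147 miRNAs, which ran from -0.29 to 0.39, at ranks 51, 54 and 71 from the highest change. With the small nucleolar RNAs RNU44 and RNU48 as normalizers the log2 changes were 0.08, 0.07 and -0.08, so the sign for miR-103 turned. In the same samples the ratio of hypoxic over normoxic cells was 11.7 for miR-210, a well-known target gene of hypoxia-inducible factor.

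miR-107 was detected in hypoxic cells at Ct 33.10 and not in normoxic cells, which makes it at least 3.72-fold higher in hypoxic cells relative to U6, computed against Ct 35. This is a bound from 1 well per sample at a late cycle, not a measured fold. It was 1 of 8 miRNAs (2.12% of 377) seen in hypoxic but not in normoxic cells, all at a Ct above 32. Among these it ranked 3 behind miR-455-3p at Ct 32.36 and miR-133a at Ct 32.96. The reverse was more frequent, as 162 miRNAs were detected in normoxic and 155 in hypoxic cells, 147 of them in both. Some seen only in normoxia came at earlier cycles, such as miR-493 (20.94), miR-15a (30.10) and miR-449a (30.41). Of these, miR-493 and miR-449a were named after their values were seen. One-sided detection thus occurred both ways, and its cause was not tested. With Ct under 32 required in both samples miR-107 has no value. Its close relative miR-103, from which it differs by G22C, was at least 5.94 cycles ahead of it in normoxic cells, so the pair had a gap of 4.11 cycles in hypoxic and of 5.94 or more in normoxic cells. How far the miR-107 assay reads miR-103 was not tested.

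The second comparison asked the same of the exosome fraction. Relative to the spike-in, miR-26a was 0.698-fold and miR-26b 0.715-fold in the hypoxic over the normoxic exosome fraction, log2 changes of -0.52 and -0.48. Each change combines 4 single wells, those of the miRNA and of the spike-in, for which the U6 wells give an SD of 0.27 cycles. Both changes are larger than this SD, though no repeat well exists for a miRNA or within this fraction. Neither miRNA was past 2-fold, against 7.39% (15 of 203) of the miRNAs detected in both exosome samples. Most of the 15 had a late Ct: with Ct under 32 in both samples, 2 higher and 0 lower remained. miR-26a and miR-26b lay below the middle 50% of the 203 miRNAs, which ran from -0.31 to 0.12. Of the 203, 10.8% had a lower change than miR-26a and 12.8% a lower change than miR-26b. These ranks do not depend on the normalizer, and the log2 changes were -0.32 and -0.28 with the median Ct of the detected miRNAs in its place. In material from many vesicles or cells, fewer of them and less RNA in each cannot be told apart. Of the 4 Ct values behind these changes, those of miR-26a in hypoxia (21.96) and of miR-26b in normoxia (23.98) lay within 0.1 of a whole cycle. The part of the gathering at whole cycles in these changes was not tested.

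**Figure D2:**
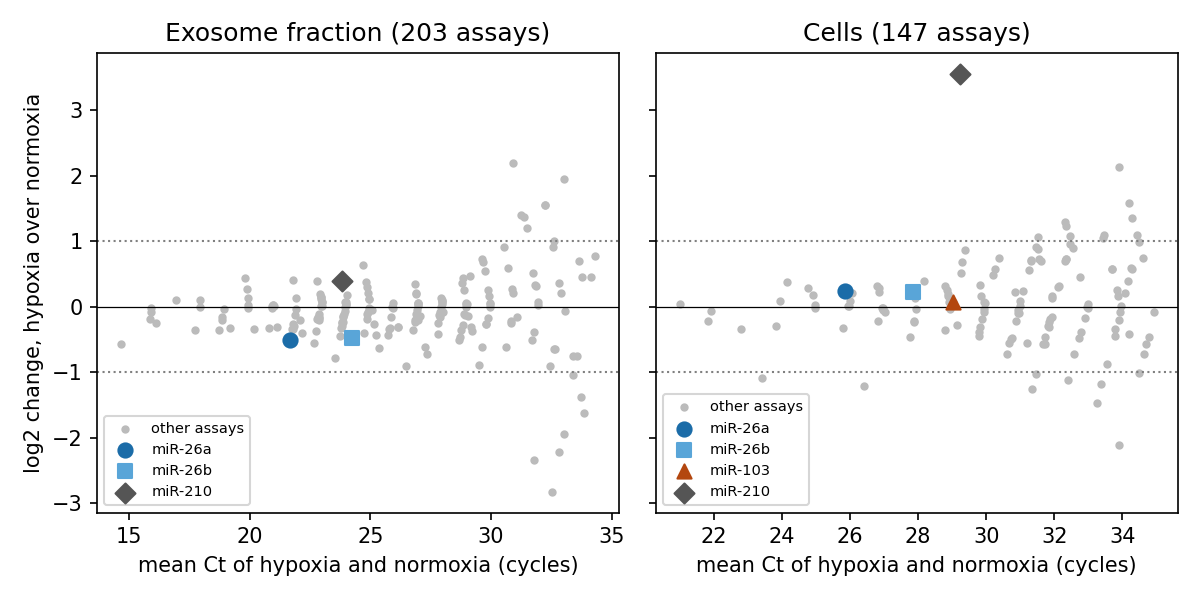
Log2 change of hypoxia over normoxia (y axis) against the mean Ct of the 2 samples in cycles (x axis) for each miRNA detected in both samples, in the exosome fraction (left, normalized to the spike-in) and in cells (right, normalized to U6). Dotted lines mark 2-fold: miR-26a and miR-26b lie between them in the exosome fraction, miR-26a, miR-26b and miR-103 in cells, and miR-210 lies above them in cells at 3.55.

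Set side by side, the changes of both miR-26 miRNAs had opposite signs in the 2 compartments. So did those of 72 of the 138 miRNAs detected in all 4 samples (52.2%). In cells the changes of the miR-26 miRNAs were near the 0.19 cycles between repeat wells. The change in the exosome fraction minus that in cells was -0.75 for miR-26a and -0.70 for miR-26b on the log2 scale, with neither past 2-fold, against 15.9% (22 of 138) of the miRNAs detected in all 4 samples. They stood at ranks 23 and 27 of 138 from the lowest difference, and the middle 50% ran from -0.59 to 0.15. With the median Ct as normalizer in both compartments the differences were -0.84 and -0.79.

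The next comparison set the exosome fraction against the cells. No RNA normalizes both, because U6 stood at the ceiling in the exosome fraction and the spike-in at the ceiling in cells, and because only the exosome products were pre-amplified. The step in Ct was therefore read against that of the other miRNAs. All 138 miRNAs detected in the 4 samples had a lower Ct in the exosome fraction, with a median step of -6.15 cycles in hypoxia and -6.51 cycles in normoxia (exosome fraction minus cells). miR-26a differed by -3.78 cycles in hypoxia and -4.59 cycles in normoxia, and miR-26b by -3.22 and -3.98 cycles. Only 13 miRNAs in hypoxia and 22 in normoxia had a smaller step than miR-26a, and 9 and 13 had a smaller step than miR-26b. The miR-26 miRNAs thus had a smaller step than most of the 138, which leave out miRNAs detected in cells only. Pre-amplification may differ between assays, and it cannot be told apart from compartment in this design. The smaller step is therefore not a measure of level alone.

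With each sample centred on its median Ct over the same 138 miRNAs, miR-26a was 9.23-fold lower in the exosome fraction than in cells in hypoxia and 5.15-fold lower in normoxia. miR-26b was 13.6-fold lower in hypoxia and 7.85-fold lower in normoxia. Both were therefore among the 16.7% of miRNAs (23 of 138) that were lower by 4-fold or more at both oxygen levels. These folds include any difference in pre-amplification between assays, and they depend on the centring. Centred on all miRNAs detected in each sample, of which the exosome fraction has more, the log2 difference of miR-26a was -0.24 in hypoxia and turned to 0.43 in normoxia, and that of miR-26b was -0.79 and -0.18. The ranks given above do not change with it.

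The gap between the miR-26 miRNAs within a sample needs no normalizer. miR-26b came after miR-26a by 2.56 cycles in the hypoxic and 2.59 cycles in the normoxic exosome fraction, against 2.00 cycles in hypoxic and 1.98 cycles in normoxic cells. The gap was thus wider in the exosome fraction by 0.56 cycles in hypoxia and 0.61 cycles in normoxia, while hypoxia minus normoxia was -0.03 cycles for the gap in the exosome fraction and 0.02 cycles in cells. For a combination of 4 single wells the U6 wells give an SD of 0.27 cycles. Both Ct values in normoxic cells lay within 0.1 of a whole cycle, and neither did in hypoxic cells. In the exosome fraction that of miR-26a did in hypoxia and that of miR-26b in normoxia. The part of this gathering in the gaps was not tested. Compartment and pre-amplification cannot be told apart in this design.

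miR-103 was not detected in the exosome fraction although it was detected in both cell samples. Of the 46 miRNAs with a mean cell Ct no higher than its 29.02, 44 were detected in both exosome samples. miR-520e was detected in the hypoxic exosome fraction only, and miR-103 alone was detected in neither; miR-520e was named after its values were seen. In all, 7 of the 147 miRNAs detected in both cell samples (4.76%) were at the ceiling in the exosome fraction at both oxygen levels. Named after their values were seen, the others were let-7a, let-7f, miR-487a, miR-23b, miR-200c and miR-98, at mean cell Ct values from 30.87 to 34.42. The Ct of miR-103 in the exosome fraction exceeded its Ct in cells by at least 6.01 cycles in hypoxia and 5.94 cycles in normoxia. Against the median step of the 138 miRNAs this is a shortfall of at least 12.2 cycles in hypoxia and 12.4 cycles in normoxia. Whether the miR-103 assay works on pre-amplified product was not tested, since no sample with a known miR-103 level was pre-amplified here.

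**Figure D3:**
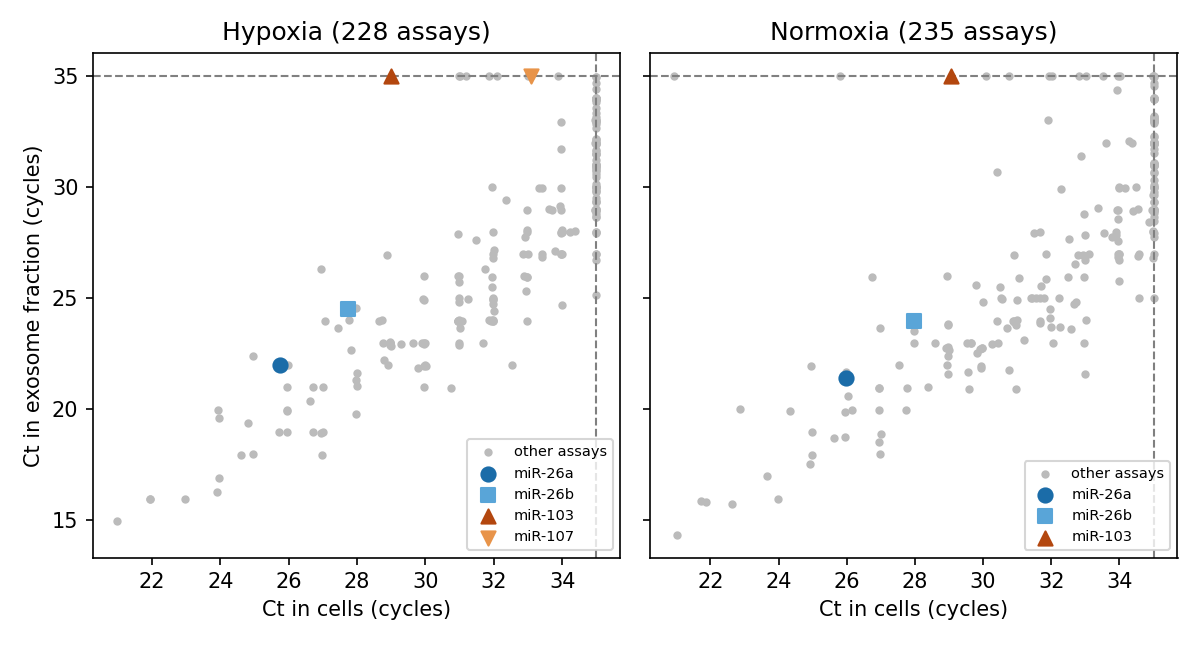
Ct in the exosome fraction (y axis, cycles) against Ct in cells (x axis, cycles) for each miRNA detected in at least 1 of the 2 samples, at 1% oxygen (left, 228 miRNAs) and 20% oxygen (right, 235 miRNAs). Dashed lines mark the ceiling of 35. miR-103 lies on the ceiling of the exosome axis at a cell Ct of 28.99 in hypoxia and 29.06 in normoxia, and miR-26a and miR-26b lie toward the upper edge of the miRNAs detected in both compartments.

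miRNAs whose pattern over the 4 samples was most like that of the miR-26 miRNAs were taken by the SD over the 4 samples of the difference in Ct, among 137 others detected in all 4. For miR-26a these were let-7g (SD 0.05 cycles), miR-126 (0.14) and miR-483-5p (0.20), against a median SD of 1.42 over the 137. For miR-26b they were miR-374b (0.11), miR-331-3p (0.28) and let-7g (0.30), against a median of 1.67. miR-26a and miR-26b had an SD of 0.34 to each other, rank 8 from the miR-26a side and rank 6 from the miR-26b side. let-7g, a member of a family known to restrain growth-promoting genes such as RAS, had a Ct of 24.00 in the hypoxic and 23.50 in the normoxic exosome fraction, and of 27.76 in hypoxic and 27.96 in normoxic cells. Its log2 change of hypoxia over normoxia was -0.45 for the exosome fraction and 0.19 for cells, beside -0.52 and 0.23 for miR-26a. The other named neighbours had smaller changes in cells: miR-126 0.01, miR-483-5p -0.01, miR-374b -0.04 and miR-331-3p -0.08. In the exosome fraction theirs ran from -0.12 (miR-483-5p) to -0.50 (miR-374b). The same Ct values chose these neighbours, so changes close to those of the miR-26 miRNAs follow from the choice. With 4 points that share cards and normalizers, this likeness is a description. miR-103 and miR-107 were detected in too few samples for it.

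The miRNAs were then set beside others reported in hypoxia, a list of 17 names of which 16 were analysed here. In cells 15 were detected in both samples and miR-107 in 1. Of the 15, only miR-210 was past 2-fold, against 13.6% of all 147 miRNAs. The other 14 lay within it, 12 of the 15 were above 0 and 3 below, and the median log2 change was 0.17, against 0.03 over all 147 miRNAs, of which 44.9% were below 0. RNU44 and RNU48 as normalizers moved every change in cells by -0.15, and then 8 of the 15 were above 0 and 7 below with a median of 0.02, against 57.1% below 0 and a median of -0.12 over all 147. miR-23b, from the miR-23/27/24 clusters, came next at 0.90 on the log2 scale, at Ct 32.11 in hypoxic and 33.01 in normoxic cells. It was followed by miR-192, known as a p53 target, at 0.59. The Ct of miR-192 was near the ceiling, 33.95 in hypoxic and 34.55 in normoxic cells. The lowest were miR-23a (-0.73) and miR-181c (-0.72). miR-26a and miR-26b were close to miR-181a (0.23), a regulator of lymphocyte signalling, and to miR-27a (0.17).

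In the exosome fraction 13 of the 16 were detected in both samples and 3 in neither, namely miR-23b, miR-103 and miR-107. None of the 13 was past 2-fold, against 7.39% of all 203 miRNAs, a share at which few or none of 13 would be. The median log2 change was -0.25, against -0.07 over all 203 miRNAs, with 10 of 13 below 0, against 58.1% of the 203. The median Ct of the detected miRNAs as normalizer moved every change by 0.20, and then 8 of the 13 were below 0 with a median of -0.05, against 36.0% below 0 and a median of 0.13 over all 203. miR-181a was lowest (-0.79), followed by miR-26a (-0.52), miR-26b (-0.48), miR-125b (-0.35) and miR-30b (-0.33). Above 0 were miR-210 (0.39), miR-27a (0.14) and miR-23a (0.00).

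**Figure D4:**
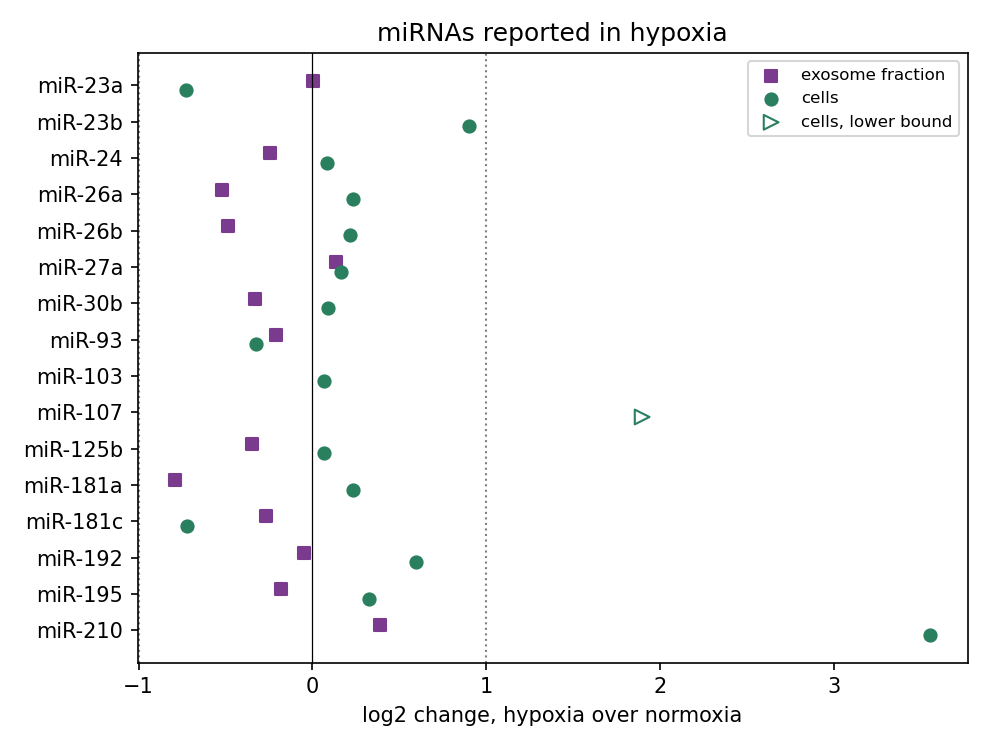
Log2 change of hypoxia over normoxia (x axis) for the 16 analysed miRNAs reported in hypoxia (rows), in the exosome fraction (squares) and in cells (circles), 1 sample per group. Dotted lines mark 2-fold and the open triangle is the lower bound of miR-107 in cells; miR-26a and miR-26b lie left of 0 in the exosome fraction and right of 0 in cells, and only miR-210 in cells has a measured change past 2-fold.

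miR-103 and miR-107 also belong to a wider group with AGCAGC near the 5′ end, to which miR-15a, miR-15b, miR-16, miR-195, miR-424 and miR-503 belong and which is known for repressing cell-cycle genes and, through miR-15a and miR-16, BCL2. As the sequences above show, AGCAGC starts at the first base of miR-103 and miR-107 and 1 base later in miR-16 and miR-15a, so their seeds differ. Among the RefSeq mature miRNAs, 13 hold AGCAGC within their first 8 bases. Of the 8 with an assay analysed here, 4 were detected in both cell samples, all within 2-fold (against 13.6% of all 147 past it, which 4 miRNAs are too few to be set against) and with a median log2 change of -0.12, or a median of -0.27 with RNU44 and RNU48 as normalizers. They were miR-195 (0.33), miR-103 (0.07), miR-16 (-0.31) and miR-15b (-0.47). Another 3 were detected in only 1 cell sample. Of these, miR-107 and miR-424 were seen in hypoxic cells only, at Ct 33.10 and 33.33, and miR-15a in normoxic cells only, at Ct 30.10. miR-503 stood at the ceiling in all 4 samples.

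In the exosome fraction 4 of these 8 were detected in both samples, again all within 2-fold, against 7.39% of all 203 past it. Their median log2 change was -0.04, which turned to 0.16 with the median Ct of the detected miRNAs as normalizer. miR-16 had the lowest Ct, 16.91 in the hypoxic and 16.97 in the normoxic exosome fraction, and miR-15b stood at 21.62 and 21.98. miR-195 stood at 22.97 in the hypoxic and 22.74 in the normoxic exosome fraction, with a Ct of 29.65 in hypoxic and 29.98 in normoxic cells, which is later than that of miR-103. These relatives were thus detected where miR-103 was not, while miR-107, miR-15a and miR-503 were also at the ceiling there.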

How the data were processed

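MicroRNAs were measured by quantitative PCR (Applied Biosystems 7900HT) in 4 samples, 1 per group. The authors' deposited table gives a Ct per well, treated here as a score in cycles that is not normalized, with a ceiling of 35. The authors' second deposited table gives the ratio (fold) of hypoxia over normoxia. Per the series' design text it was made with Data Assist 3.1, and a U6 small RNA and the spike-in were the controls. The sources used here do not say how the ceiling was set.

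The log2 change is the Ct in normoxia minus that in hypoxia, after subtraction of the mean of the 4 U6 wells (cells) or of ath-miR159a (exosome fraction), with pandas 2.3.3 and numpy 2.4.6. The largest deviation from the authors' table was 0.000356 (log2) over miRNAs detected in both samples. A Ct under 35 counted as detected and 2-fold as the threshold. Where 1 of 2 samples was at the ceiling, the miRNA has a bound against Ct 35. Exosome fraction and cells were compared by the step in Ct and after centring on the median Ct of the miRNAs detected in all samples. The calculation was tested on simulated data. Ct values carry no counting depth, and each miRNA has a single well in a single sample of each group, which limits the precision. Separate cultures behind the samples are not stated. The alternatives were other normalizers, Ct under 32, a threshold of 1.5-fold and other centring.

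The named miRNAs were the 4 members, the control RNAs, miR-210, the members of the 2 lists (miRNAs reported in hypoxia and the AGCAGC group) and, for each member detected in all samples, the 3 miRNAs with the smallest SD of the Ct difference over the samples. Members and lists were chosen with earlier results of these data known. Of the 4 red cell and platelet assays, 1 was detected in the hypoxic and 2 in the normoxic exosome fraction and 1 in each cell sample. Mature and hairpin sequences came from RefSeq (GRCh38.p14), in which all 4 members were matched by name.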

Additional observations from a re-analysis of the deposited data

Results flagged for a closer look

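miR-26a and miR-26b were singled out because their difference between hypoxia and normoxia had opposite signs in the exosome fraction and in cells. For miR-26a the log2 change was -0.52 in the exosome fraction and 0.23 in cells, a difference of -0.75. For miR-26b it was -0.48 in the exosome fraction and 0.21 in cells, a difference of -0.70. The difference was not tested, since each group is 1 sample. Opposite signs were seen for 72 of the 138 miRNAs detected in all 4 samples (52.2%), and 48 of them (34.8%) were, like these, above 0 in cells and below 0 in the exosome fraction.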

How the results depend on the processing

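No paired analysis was possible because each group holds 1 sample and the labels give no replicate number. A log2 value was called moved when it differed from that reported by more than 0.19, the SD of a difference between 2 U6 wells, and a count when it differed by more than 1.5 times. Over the normalizers tried and the authors' deposited table, the log2 change in cells ran from 0.08 to 0.29 for miR-26a, 0.07 to 0.27 for miR-26b and -0.08 to 0.13 for miR-103, and the bound of miR-107 from 1.75 to 1.96. In the exosome fraction the median Ct as normalizer gave -0.32 for miR-26a and -0.28 for miR-26b. The comparison of exosome fraction with cells changed with the centring. With the mean Ct of the same miRNAs the log2 difference was -2.27 (hypoxia) and -1.71 (normoxia) for miR-26a, -2.83 and -2.31 for miR-26b, and the limits for miR-103 were -12.06 and -12.23. With the median of all miRNAs detected in each sample it was -0.24 and 0.43 for miR-26a, -0.79 and -0.18 for miR-26b, and the limits for miR-103 were -10.02 and -10.10. That setting takes its medians over different miRNAs in each sample.

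The counts past 2-fold in cells, 11 higher and 9 lower, became 1 and 4 with Ct under 32 in both samples, and 28 and 13 at 1.5-fold, and the 11 higher became 6 with RNU44 and RNU48. In the exosome fraction, 8 higher and 7 lower became 2 and 0 with Ct under 32, and 15 and 20 at 1.5-fold. Among the miRNAs reported in hypoxia, 1.5-fold gave 3 higher and 2 lower of 15 in cells, beside 28 and 13 of 147 over all miRNAs, and 1 lower of 13 in the exosome fraction, beside 20 of 203. The gaps between miR-26a and miR-26b used Ct values under 32 only. For miR-103 and miR-107 that limit left no pair.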

Other observations

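Chosen after the data were seen, the 87 miRNAs under Ct 25 in both exosome samples had a median log2 change of hypoxia over normoxia of -0.08 and a middle 50% from -0.27 to 0.08. Among these abundant miRNAs miR-26a ranked 4 and miR-26b ranked 6 from the lowest change. In cells, 60 miRNAs were under Ct 30 in both samples, with a middle 50% from -0.20 to 0.21, and miR-26a ranked 48 and miR-26b ranked 46 from the lowest change.

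Per the labels' protocols the spike-in was added to cell and exosome lysates alike. Its Ct was 22.99 in the hypoxic and 22.94 in the normoxic exosome fraction and at the ceiling of 35 in both cell samples. Only the exosome products were pre-amplified, and all 138 miRNAs detected in the 4 samples also had a lower Ct there. The cause of the spike-in's ceiling value in cells was not tested. The authors' deposited table lists a ratio of 1.04 for miR-103 and miR-107 in the exosome fraction, where both stood at the ceiling in both samples, and 3.72 for miR-107 in cells, which equals the bound against Ct 35.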
